A study of Mus musculus with 15 samples.

Results

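RNA levels of 31 genes for nucleotide and one-carbon synthesis were compared between knockout and wild-type mouse embryonic stem cells. The genes were chosen by name, and each symbol matched a single row of the 37310 rows in the deposited table of counts. They fall into a purine branch of 12 genes, a pyrimidine branch of 5, a deoxynucleotide (dNTP) branch of 4 and a serine, glycine and threonine one-carbon branch of 10. The cells were J1 embryonic stem cells in serum medium with leukaemia inhibitory factor and an added nucleoside mix. One experiment set Taf5l knockout cells (Taf5l-KO) and Taf6l knockout cells (Taf6l-KO) against their wild type (WT-Taf). Another set Myc knockout cells (Myc-KO) against a separate wild type (WT-Myc). Each of the 5 groups had 3 libraries. The SAGA complex, a coactivator of transcription, contains TAF5L and TAF6L. MYC drives many genes of growth and biosynthesis. Nothing in the labels ties the libraries of a group to separate cultures. The p-values therefore measure only how far these libraries vary, and that variation may be technical. All Myc-KO libraries carry the same code in their descriptions, and whether it marks a single clone is not stated.

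Purines are built on phosphoribosyl pyrophosphate (PRPP) step by step until inosine monophosphate (IMP), which is then turned into adenine and guanine nucleotides. Pyrimidines are built as a free ring that is joined to PRPP, giving uridine monophosphate, and ribonucleotide reductase and thymidylate synthase then supply the deoxynucleotides for DNA. Purine synthesis, thymidylate synthase and methylation draw on one-carbon units carried by folate. Mouse embryonic stem cells take these units from serine, from glycine and, through threonine dehydrogenase, from threonine.

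Estimated counts summed to between 17139357 and 20655500 per library in Taf5l-KO, 17446821 and 21767884 per library in Taf6l-KO, 14935631 and 20337365 in the WT-Taf group, 22193018 and 27650813 in Myc-KO and 17922864 and 23869375 in WT-Myc. Each targeted gene was lower in its own knockout and kept measurable RNA, with log2 fold changes of -1.02 for Taf5l, -1.99 for Taf6l and -1.19 for Myc. Myc itself also fell in Taf5l-KO (-0.69) and Taf6l-KO (-0.83). The summed level of 9 embryonic stem cell markers was 4184 to 6886 CPM (read counts scaled to a common library size) across libraries, against 8.04 to 13.5 CPM for 10 feeder fibroblast markers, of which 3 to 5 were at 0 in every library of a group. These sums moved with the Taf knockouts. Stem cell markers summed to 4234 to 4358 CPM in Taf5l-KO and 4184 to 4271 CPM in Taf6l-KO, against 4858 to 4932 CPM in WT-Taf. Markers of differentiating cells, none of which was at 0 throughout a group, summed to 8.66 to 9.94 CPM in Taf5l-KO and 9.32 to 9.82 CPM in Taf6l-KO, against 5.87 to 6.97 CPM in WT-Taf. These markers did not move as one. Only 4 of the 9 passed the filter on low counts in the Taf experiment. Of those, 2 were called higher and 1 lower in each Taf knockout, the lowest at a log2 fold change of -2.20 in Taf5l-KO and -2.21 in Taf6l-KO. In the Myc experiment the differentiating markers summed to 8.39 to 9.06 CPM in Myc-KO and 8.80 to 9.68 CPM in WT-Myc, and the stem cell markers to 6497 to 6886 CPM in Myc-KO and 5991 to 6182 CPM in WT-Myc. The part of these shifts in the members' changes was not tested. Replicate 3 of Myc-KO stood apart from the other libraries of its group, as its counts gave a chi-square over degrees of freedom of 36.4 and 26.3 against them, and those gave 5.07 against each other. Without it, 11 members were called lower and 2 higher in Myc-KO. In bulk RNA, fewer cells of a kind and less RNA per cell cannot be told apart. CPM values here are scaled by library and not by gene length, so they are compared within a gene and within an experiment.

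Synthesis genes were lower more often than higher in each knockout, by small amounts. A gene is called when its Benjamini-Hochberg adjusted p, over all genes tested, is under 0.05. In Taf5l-KO 16 of 31 members were called lower (51.6%, against 15.9% of all tested genes) and 6 higher (19.4%, against 17.4%). In Taf6l-KO 18 were called lower (58.1%, against 18.2%) and 6 higher (19.4%, against 19.1%). In Myc-KO 10 were called lower (32.3%, against 19.5%) and 1 higher (3.23%, against 15.2%). Scaling by library totals gave 17 lower and 4 higher in Taf5l-KO, 12 lower and 7 higher in Taf6l-KO, and 7 lower and 1 higher in Myc-KO. The median log2 fold change of the members was -0.10 in Taf5l-KO, -0.12 in Taf6l-KO and -0.07 in Myc-KO, beside 0.00054, 0.02 and -0.0018 for all tested genes in the same order of knockouts. Under every alternative tried, 12 of 22 calls held in Taf5l-KO, 13 of 24 in Taf6l-KO and 6 of 11 in Myc-KO. The Taf knockouts share their wild-type libraries, so their counts are not independent.

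In the purine branch 8 of 12 genes were lower and 1 higher in Taf5l-KO, 9 lower and 2 higher in Taf6l-KO, and 4 lower and none higher in Myc-KO. Its median log2 fold change was -0.15, -0.15 and -0.14 in those knockouts. Pyrimidine genes were split in the Taf knockouts, with 2 of 5 lower and 2 higher in Taf5l-KO, 2 lower and 1 higher in Taf6l-KO, and 2 lower and none higher in Myc-KO. Among the dNTP genes, 2 of 4 were lower in each knockout and 1 was higher in Myc-KO. One-carbon genes were mixed, with 4 of 10 lower and 3 higher in Taf5l-KO, 5 lower and 3 higher in Taf6l-KO, and 2 lower and none higher in Myc-KO. Over all tested genes, the share called lower was 15.9% in Taf5l-KO, 18.2% in Taf6l-KO and 19.5% in Myc-KO. The share called higher was 17.4%, 19.1% and 15.2% in the same order. The one-carbon count of 2 of 10 lower in Myc-KO was thus near the share of all tested genes. Branches of 4 or 5 genes are too small to be weighed against these shares. Differences between branches were not tested. Summed over the purine branch, RNA came to 3020 ± 49.5 CPM in Taf5l-KO and 3022 ± 13.9 CPM in Taf6l-KO, against 3316 ± 12.7 CPM in WT-Taf (SD, n = 3 each). The same sum was 3357 ± 50.2 CPM in Myc-KO and 3612 ± 42.3 CPM in WT-Myc. For the pyrimidine branch the order differed between experiments. It summed to 675 ± 9.03 CPM in Taf5l-KO and 667 ± 8.95 CPM in Taf6l-KO, against 633 ± 5.48 CPM in WT-Taf. It summed to 821 ± 36.1 CPM in Myc-KO and 1002 ± 11.3 CPM in WT-Myc. The higher sum in the Taf knockouts rested on Cad. Without Cad the branch summed to 314 ± 7.75 CPM in Taf5l-KO and 319 ± 1.46 CPM in Taf6l-KO, against 344 ± 2.90 CPM in WT-Taf, and to 377 ± 5.11 CPM in Myc-KO and 409 ± 8.34 CPM in WT-Myc, so it was then lower in all 3 knockouts.

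**Figure D1:**
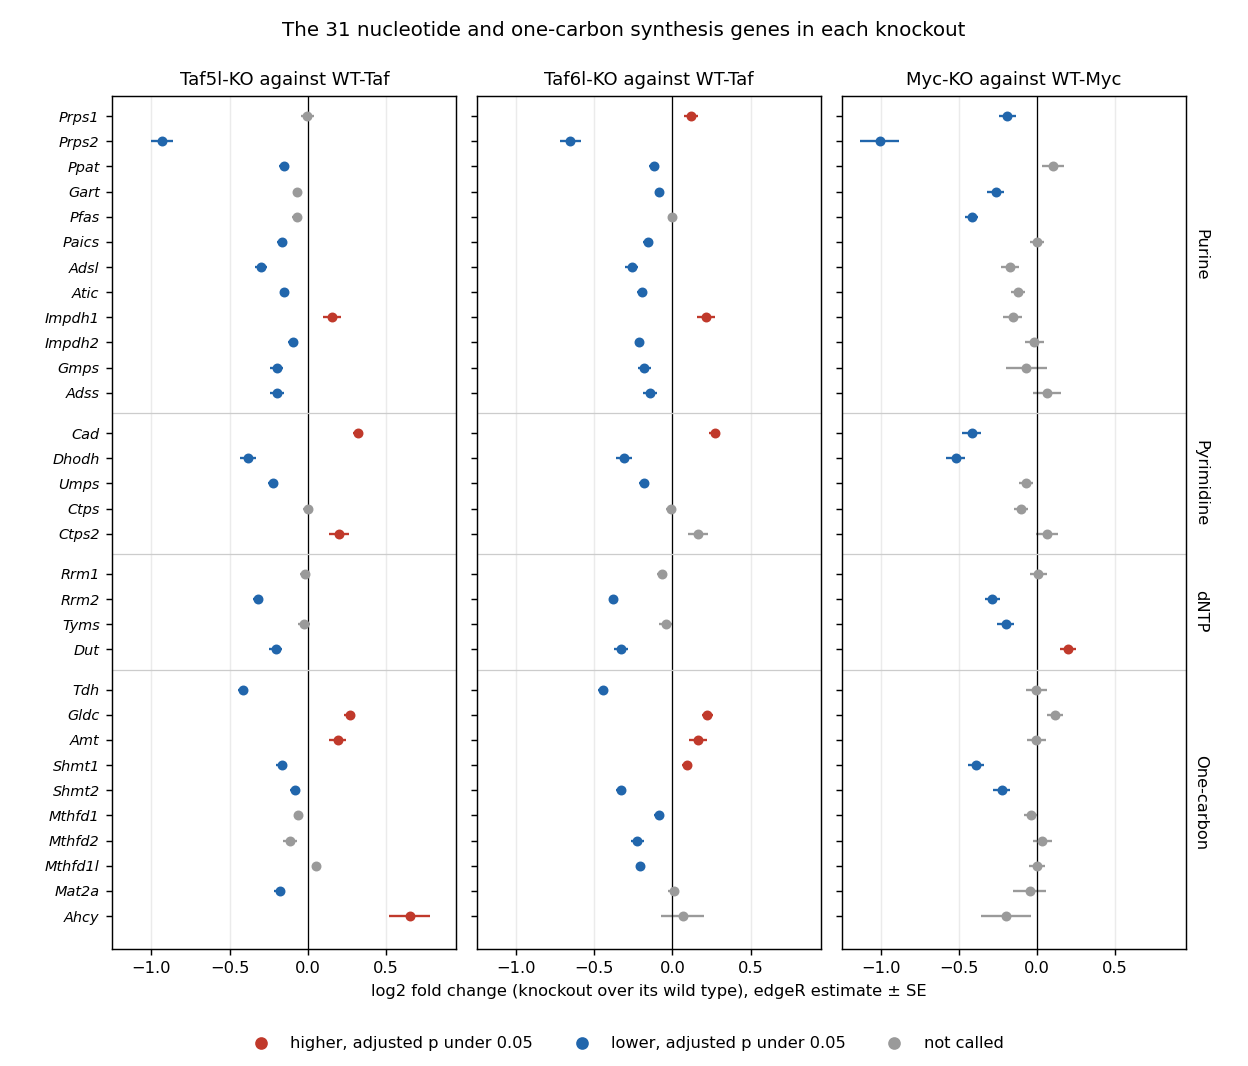
Log2 fold change (edgeR estimate with its standard error, x axis) of each of the 31 members, by branch down the page, in Taf5l-KO, Taf6l-KO and Myc-KO against their own wild types. Blue dots are called lower, red dots higher and grey dots not called; Prps2 lies furthest left in every panel, and Cad is to the right of 0 in both Taf knockouts and to the left of it in Myc-KO.

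The 4 members Prps2, Dhodh, Rrm2 and Shmt2 were called lower in all 3 knockouts, as were 3.39% of the 14142 genes tested in all of them. Another 3, Cad, Dut and Shmt1, were called in all 3 with directions that differed. Ctps and Rrm1 were called in none. The libraries of the knockout did not overlap those of its wild type for 25 members in Taf5l-KO (44.7% of all tested genes), 22 in Taf6l-KO (49.0%) and 17 in Myc-KO (49.6%).

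The lowest fold change of any member in each knockout was that of Prps2. PRPP synthetase makes PRPP, which both nucleotide routes use, from ribose phosphate, and Prps1 and Prps2, both X-linked, encode its common subunits. Prps2 had 17.8, 19.3 and 17.7 CPM in the Taf5l-KO libraries and 21.04, 21.7 and 23.9 CPM in the Taf6l-KO libraries, against 36.9, 35.5 and 32.02 CPM in WT-Taf. It had 28.8, 28.3 and 36.7 CPM in Myc-KO and 70.6, 63.3 and 55.1 CPM in WT-Myc. Every knockout library was below every library of its wild type. The log2 fold change was -0.93 ± 0.068 (SE) in Taf5l-KO (adjusted p = 1.59e-07), -0.65 ± 0.065 in Taf6l-KO (adjusted p = 2.45e-06) and -1.01 ± 0.12 in Myc-KO (adjusted p = 0.000734). Prps2 was higher in Taf6l-KO than in Taf5l-KO by 0.28 ± 0.070 (adjusted p = 0.0124), a call lost without Taf6l-KO replicate 3 (0.22, adjusted p = 0.0664). The fall in the Taf knockouts was not called different from that in Myc-KO, with a difference (SE) of 0.03 ± 0.14 for Taf5l (adjusted p = 0.892) and 0.31 ± 0.14 for Taf6l (adjusted p = 0.0885). Among all tested X-linked genes, 31.4% were lower in Taf5l-KO (median log2 fold change -0.13), 34.2% in Taf6l-KO (-0.10) and 16.9% in Myc-KO (0.02).

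Prps1 did not follow its paralog. It had 109, 114 and 111 CPM in Taf5l-KO and 121, 128 and 115 CPM in Taf6l-KO, against 115, 107 and 112 CPM in WT-Taf, and the libraries of these groups overlapped. In Myc-KO it had 109, 103 and 112 CPM, below the 127, 122 and 120.3 CPM of WT-Myc. Its log2 fold change was -0.0031 ± 0.042 in Taf5l-KO, 0.12 ± 0.042 in Taf6l-KO (adjusted p = 0.0374) and -0.19 ± 0.053 in Myc-KO (adjusted p = 0.0269). These calls were fragile. That in Taf6l-KO was lost without Taf6l-KO replicate 1 or 2 or WT-Taf replicate 2 or 3 (0.08 to 0.12, adjusted p = 0.0766 to 0.18). That in Myc-KO was lost without any 1 of its libraries other than Myc-KO replicate 3 (-0.21 to -0.15, adjusted p = 0.0537 to 0.126). A near copy of Prps1, Prps1l3, matches 96.9% of its coding bases and held a mean of 1504 counts beside 2366 for Prps1, so the split of reads between them is uncertain.

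Of the purine steps between PRPP and IMP, Ppat, Paics, Adsl and Atic were called lower in both Taf knockouts and not in Myc-KO, while Gart and Pfas were called lower in Myc-KO. Ppat encodes the committing amidotransferase, and its log2 fold change was -0.15 in Taf5l-KO, -0.12 in Taf6l-KO and 0.10 in Myc-KO (adjusted p = 0.304). Paics, a later bifunctional enzyme, had -0.17, -0.16 and -0.0015 (adjusted p = 0.986) in the same knockouts. Adenylosuccinate lyase, Adsl, acts both before IMP and on the adenine side, and fell by more, at -0.30 in Taf5l-KO and -0.26 in Taf6l-KO, with -0.17 in Myc-KO (adjusted p = 0.0512). Atic, which closes the purine ring, had -0.15, -0.19 and -0.12 (adjusted p = 0.0618). The lack of a call in Myc-KO was not stable for Atic and Adsl. Atic was called lower there without Myc-KO replicate 3 (-0.13, adjusted p = 0.0192), as was Adsl without Myc-KO replicate 1 (-0.21, adjusted p = 0.0467), and a single fit of all 15 libraries called both (adjusted p = 0.0377 for Atic and 0.0443 for Adsl) and called Ppat higher (0.13, adjusted p = 0.0394). Paics lost its call in Taf5l-KO with limma on log2(FPKM + 1) (adjusted p = 0.0636) and in Taf6l-KO with library totals (adjusted p = 0.0648). Pfas, the glutamine-using synthase, had 203, 199 and 195 CPM in Myc-KO and 261, 268 and 268 CPM in WT-Myc (log2 fold change -0.42 ± 0.041, adjusted p = 0.00026), and was -0.07 in Taf5l-KO and -0.00045 in Taf6l-KO, neither called. The trifunctional Gart had -0.27 in Myc-KO (adjusted p = 0.00832), -0.07 in Taf5l-KO (adjusted p = 0.0946) and -0.08 in Taf6l-KO (adjusted p = 0.034). The last of these calls was lost without any 1 of the 6 Taf6l-KO and WT-Taf libraries (-0.09 to -0.07, adjusted p = 0.0535 to 0.115), and the Ppat call in Taf6l-KO without Taf6l-KO replicate 1 or WT-Taf replicate 2 (-0.10 to -0.09, adjusted p = 0.0501 to 0.0742).

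These differences between experiments were tested as the knockout effect in the Taf experiment minus that in the Myc experiment. Pfas differed by 0.31 ± 0.052 for Taf5l (adjusted p = 0.000303) and 0.37 ± 0.052 for Taf6l (adjusted p = 3.87e-05). Ppat differed by -0.30 (adjusted p = 0.00402) and -0.26 (0.00887), and Paics by -0.21 (0.00517) and -0.20 (0.0063). With library totals the Taf6l differences of Ppat (adjusted p = 0.054) and Paics (0.082) lost their calls. For Adsl, Atic and Gart the difference was not called, though some alternatives called it. Without Myc-KO replicate 3, Adsl differed by -0.22 for Taf5l (adjusted p = 0.0149) and -0.18 for Taf6l (0.0368). Without Myc-KO replicate 1, Gart differed by 0.20 for Taf5l (adjusted p = 0.0339) and 0.18 for Taf6l (0.0466). DESeq2 called Gart for Taf5l (adjusted p = 0.0484) and Atic for Taf6l (0.0257), and library totals called Gart for Taf6l (0.0424). Pfas lies on chromosome 11, where 39.1% of tested genes were higher in Taf6l-KO and 27.2% lower in Myc-KO.

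After IMP, the guanine side held a pair of paralogs that moved apart in the Taf knockouts. IMP dehydrogenase, the first enzyme towards guanine nucleotides, is encoded by Impdh1 and Impdh2. Impdh2 had 417, 426 and 412 CPM in Taf5l-KO and 382, 386 and 388 CPM in Taf6l-KO, against 440.4, 448 and 453 CPM in WT-Taf, with no overlap. This gave a log2 fold change of -0.10 ± 0.028 in Taf5l-KO (adjusted p = 0.016) and -0.21 ± 0.028 in Taf6l-KO (adjusted p = 3.75e-05), and Taf6l-KO was lower than Taf5l-KO, at -0.12 on the log2 scale (adjusted p = 0.0096). Impdh1 had 38.2, 40.6 and 42.7 CPM in Taf5l-KO and 41.1, 41.6 and 43.96 CPM in Taf6l-KO, against 35.7, 34.4 and 39.5 CPM in WT-Taf. Its log2 fold change was 0.16 ± 0.058 in Taf5l-KO (adjusted p = 0.0491), where libraries overlapped, and 0.22 ± 0.057 in Taf6l-KO (adjusted p = 0.00803). In the Myc experiment neither was called. Impdh2 had 622, 616 and 540.1 CPM in Myc-KO and 587, 597 and 616 CPM in WT-Myc. Impdh1 had 46.5, 48.03 and 43.4 CPM in Myc-KO and 49.3, 50.8 and 53.4 CPM in WT-Myc (log2 fold change -0.16 ± 0.061, adjusted p = 0.0845). In Taf5l-KO the Impdh1 call was lost without Taf5l-KO replicate 2 or 3, any 1 Taf6l-KO library or WT-Taf replicate 1 or 2 (0.11 to 0.16, adjusted p = 0.0545 to 0.212), and the Impdh2 call without WT-Taf replicate 2 or 3 (-0.10 to -0.09, adjusted p = 0.0533 to 0.0658). In Taf6l-KO the Impdh1 call was lost without WT-Taf replicate 2 (0.17, adjusted p = 0.0524).

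Gmps, which makes guanosine monophosphate, and Adss, which starts the adenine side, were lower in both Taf knockouts. Gmps had log2 fold changes of -0.20 in Taf5l-KO, -0.18 in Taf6l-KO and -0.07 in Myc-KO (adjusted p = 0.716). The Gmps call in Taf6l-KO was lost with library totals (-0.11, adjusted p = 0.0551), and a single fit of all 15 libraries ended it in Taf5l-KO (adjusted p = 0.114) and Taf6l-KO (0.146). Adss had -0.20, -0.14 and 0.06 (adjusted p = 0.639), and its call in Taf6l-KO was lost without Taf6l-KO replicate 1 or WT-Taf replicate 3 (-0.13, adjusted p = 0.059 to 0.0599).

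The letters of 3 motifs were looked up near the starts of these genes, since MYC binds the E-box CACGTG and E2F factors, which drive S-phase genes, bind TTTGGCGC or TTTCCCGC. RefSeq windows of 300 bases (250 before and 50 after the start, GRCm38.p6) were at hand for 28 members, and both strands were searched. CACGTG lay in the windows of 4 members, Paics, Atic, Impdh2 and Tyms, and in 7.15% of all 32851 windows. An E2F motif lay in those of Ppat and Prps2, and in 1.56% of all windows. The amino acid response motif TTGCATCA was in none of the member windows and in 0.895% of all. Paics and Ppat point away from each other on chromosome 5, and their 5′ ends overlap by 277 bases. The 30 bases around each match are shown 5′ to 3′ on the strand of the gene, with the motif in capitals.
Paics E-box, chr5:76951087-76951116, plus strand: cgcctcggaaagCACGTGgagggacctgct
Atic E-box, chr1:71557137-71557166, plus strand: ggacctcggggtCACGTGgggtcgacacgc
Impdh2 E-box, chr9:108560314-108560343, plus strand: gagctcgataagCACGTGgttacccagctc
Tyms E-box, chr5:30073669-30073698, minus strand: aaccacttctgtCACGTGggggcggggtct
Ppat upstream E2F motif, chr5:76951771-76951800, minus strand: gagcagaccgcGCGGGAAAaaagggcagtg
Ppat downstream E2F motif, chr5:76951718-76951747, minus strand: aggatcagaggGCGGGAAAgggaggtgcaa
Prps2 E2F motif, chrX:167382700-167382729, minus strand: cctgctgctgcgtTTTCCCGCttcaccagc
In Ppat the motif is on the opposite strand, so it reads GCGGGAAA. The E-box ends 198 bases before the annotated start in Paics, 2 in Atic, 105 in Impdh2 and 56 in Tyms, and the Prps2 match starts 33 bases after it. Both Ppat matches lie before the Ppat start. The match labelled upstream ends 204 bases before that start, and the match labelled downstream ends 151 bases before it. Of the 4 members with an E-box here, Paics, Atic and Impdh2 were called lower in both Taf knockouts. So were 14 of all 31 members and 11.8% of the genes tested in all 3 knockouts. In Myc-KO, Tyms was called lower, a call lost without some single libraries. Paics (-0.0015), Atic (-0.12) and Impdh2 (-0.02) were not called there. Without Myc-KO replicate 3, Atic was called lower (-0.13, adjusted p = 0.0192) and Impdh2 was 0.06, not called. A match is a run of letters and no evidence of binding, and other stretches were not searched.

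In the pyrimidine branch, the enzymes of the first and the fourth step moved in different ways. Cad encodes the large enzyme for the first 3 steps of pyrimidine synthesis. It had 376, 349.8 and 356 CPM in Taf5l-KO and 359, 342 and 344 CPM in Taf6l-KO, against 288, 287 and 292 CPM in WT-Taf. It had 472, 453 and 408 CPM in Myc-KO, against 572, 605 and 602 CPM in WT-Myc. All Taf knockout libraries were above their wild type and all Myc-KO libraries below theirs. In log2 terms the fold change was 0.32 ± 0.034 in Taf5l-KO (adjusted p = 6e-06), 0.27 ± 0.034 in Taf6l-KO (adjusted p = 2.34e-05) and -0.42 ± 0.061 in Myc-KO (adjusted p = 0.00164). The effects differed by 0.70 ± 0.078 for Taf5l against Myc (adjusted p = 5.86e-06) and 0.65 ± 0.078 for Taf6l against Myc (adjusted p = 9.49e-06), the smallest adjusted p of any member for either difference.

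Dhodh, the mitochondrial enzyme of the fourth step, was lower in all 3 knockouts. It had 24.3, 23.8 and 25.99 CPM in Taf5l-KO and 25.7, 25.6 and 26.6 CPM in Taf6l-KO, against 33.2, 31.2 and 32.2 CPM in WT-Taf. It had 30.7, 30.2 and 28.8 CPM in Myc-KO, against 41.2, 42.2 and 45.2 CPM in WT-Myc, and no groups overlapped. edgeR estimated the log2 fold change at -0.38 ± 0.051 in Taf5l-KO (adjusted p = 5.09e-05), -0.31 ± 0.050 in Taf6l-KO (adjusted p = 0.000224) and -0.52 ± 0.059 in Myc-KO (adjusted p = 0.000491). With limma-trend on the deposited FPKM (log2 of FPKM + 1), it was -0.43 in Taf5l-KO (adjusted p = 0.084) and -0.28 in Taf6l-KO (adjusted p = 0.219), which ends those calls. Umps, which finishes uridine monophosphate, was -0.22 ± 0.032 in Taf5l-KO, -0.18 ± 0.031 in Taf6l-KO and -0.07 ± 0.043 in Myc-KO (adjusted p = 0.243). Of the CTP synthetases, Ctps was 0.0024, -0.0097 and -0.10, not called, and the X-linked Ctps2 was 0.20 ± 0.065 in Taf5l-KO (adjusted p = 0.0299), 0.16 in Taf6l-KO and 0.06 in Myc-KO. That call was lost without Taf5l-KO replicate 1 or 3 or WT-Taf replicate 1 or 2 (0.17 to 0.20, adjusted p = 0.0667 to 0.114).

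**Figure D2:**
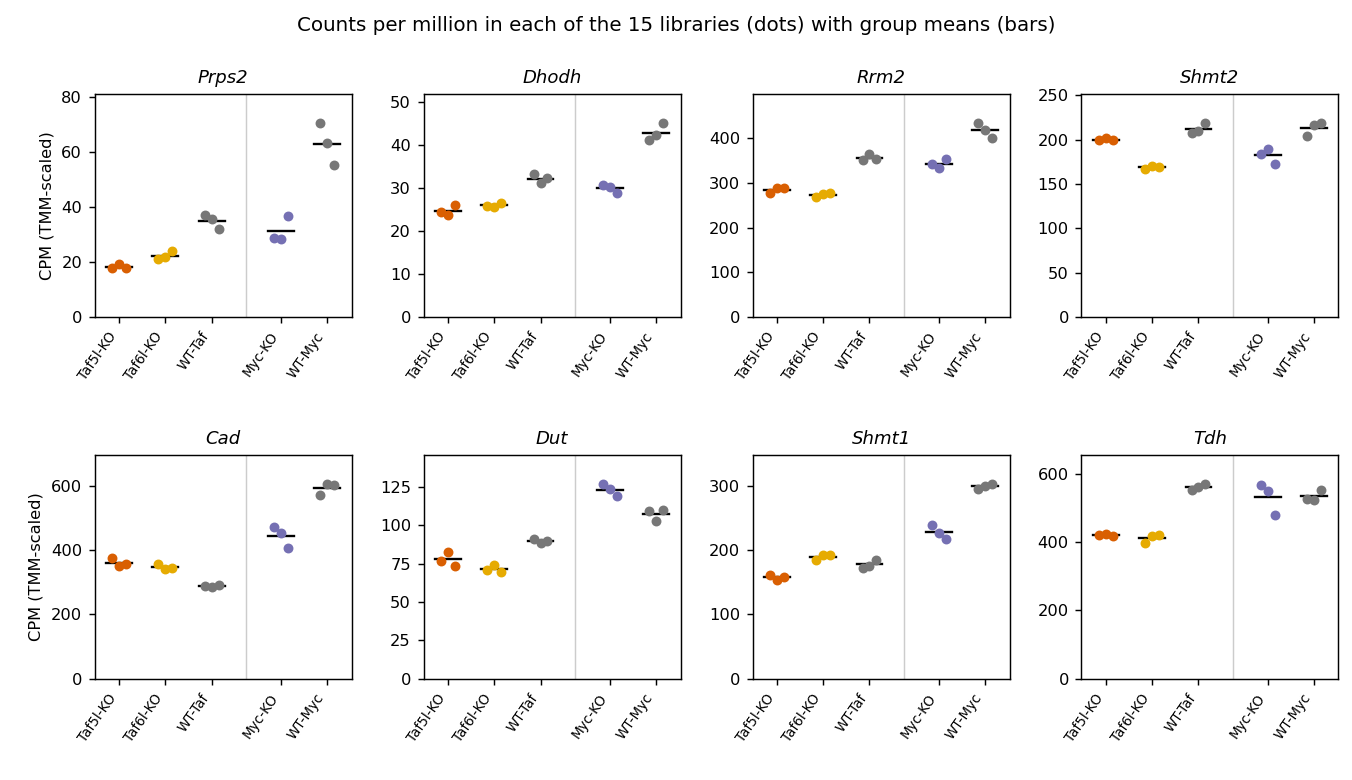
TMM-scaled CPM (y axis) of 8 members in each library (dots) with the group mean (bar), with knockouts left of their wild type and the Taf experiment left of the Myc experiment. Prps2, Dhodh, Rrm2 and Shmt2 are lower in all knockouts, Cad and Dut each move in opposite directions in the Taf and Myc experiments, and Tdh is lower in both Taf knockouts, while its Myc-KO and WT-Myc libraries overlap.

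Ribonucleotide reductase makes deoxynucleotides, and of its subunits among the members, Rrm2 was called lower in all 3 knockouts and Rrm1 in none. Rrm2, the small subunit whose level follows S phase, had 278, 288 and 289 CPM in Taf5l-KO and 269, 276 and 276 CPM in Taf6l-KO, against 351, 364 and 352 CPM in WT-Taf. It had 342, 333 and 353 CPM in Myc-KO, against 435, 419 and 401 CPM in WT-Myc. The knockout libraries lay below their wild types without overlap in all 3 comparisons. The fitted log2 fold change was -0.32 ± 0.030 in Taf5l-KO (adjusted p = 2e-06), -0.38 ± 0.030 in Taf6l-KO (adjusted p = 2.87e-07) and -0.29 ± 0.048 in Myc-KO (adjusted p = 0.0029). Rrm1, the large subunit, was -0.02 ± 0.032, -0.07 ± 0.032 and 0.0078 ± 0.056 in those knockouts, with overlapping libraries and no call. In a fit of the Taf6l-KO and WT-Taf libraries alone, Rrm1 was called lower in Taf6l-KO (-0.08, adjusted p = 0.0388). The subunits were not tested against each other. Thymidylate synthase, Tyms, was -0.02 in Taf5l-KO and -0.04 in Taf6l-KO, not called, and -0.20 ± 0.054 in Myc-KO (adjusted p = 0.0223). The Tyms call was lost without Myc-KO replicate 1 or 2 or WT-Myc replicate 1 or 3 (-0.21 to -0.18, adjusted p = 0.0674 to 0.0849).

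Dut, the dUTPase that makes dUMP and keeps uracil out of DNA, changed sign between the experiments. It had 76.99, 82.9 and 73.7 CPM in Taf5l-KO and 70.8, 74.5 and 69.5 CPM in Taf6l-KO, against 91.3, 88.6 and 89.6 CPM in WT-Taf. It had 127, 124 and 119 CPM in Myc-KO, against 109.6, 103 and 110.3 CPM in WT-Myc. No knockout library overlapped its wild type. The change on the log2 scale was -0.21 ± 0.044 in Taf5l-KO (adjusted p = 0.00226), -0.33 ± 0.044 in Taf6l-KO (adjusted p = 4.06e-05) and 0.20 ± 0.052 in Myc-KO (adjusted p = 0.022). The difference of effects was -0.45 ± 0.071 for Taf5l (adjusted p = 0.000184) and -0.57 ± 0.071 for Taf6l (adjusted p = 1.57e-05). The call in Myc-KO was lost without Myc-KO replicate 1 or 2 or WT-Myc replicate 1 or 2 (0.17 to 0.21, adjusted p = 0.0561 to 0.0984), while both differences kept their calls without any 1 library.

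Dctd, the deaminase that makes dUMP from dCMP and no member of the 31, had the same signs as Dut. It was -0.17 in Taf5l-KO (adjusted p = 0.0231), -0.35 in Taf6l-KO (0.000141) and 0.39 in Myc-KO (0.00203), with differences from the Myc effect of -0.60 for Taf5l (adjusted p = 4.82e-05) and -0.78 for Taf6l (3.2e-06). It was set beside Dut after its values were seen. Of 20 replication genes of S phase, 16 were lower and none higher in Taf5l-KO (median log2 fold change -0.17), 13 lower and none higher in Taf6l-KO (-0.23), and 4 lower and 4 higher in Myc-KO (median near 0). Among all tested genes, 15.9% were lower and 17.4% higher in Taf5l-KO, and 18.2% lower and 19.1% higher in Taf6l-KO. In Myc-KO 19.5% of them were lower and 15.2% higher, so the counts of replication genes there were near those of all tested genes. Whether the dNTP genes move with the share of cells in S phase was not tested.

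In the one-carbon branch, threonine dehydrogenase had the lowest log2 fold change in both Taf knockouts. Tdh starts the breakdown of threonine into glycine and is highly expressed in mouse embryonic stem cells. It had 421, 424 and 417 CPM in Taf5l-KO and 398, 419 and 419 CPM in Taf6l-KO, against 552, 562 and 569 CPM in WT-Taf, with no overlap. It had 566, 551 and 479 CPM in Myc-KO and 525, 524 and 553 CPM in WT-Myc, which overlapped. The log2 fold change was -0.42 ± 0.030 in Taf5l-KO (adjusted p = 1.59e-07), -0.44 ± 0.030 in Taf6l-KO (adjusted p = 5.72e-08) and -0.0053 ± 0.067 in Myc-KO (adjusted p = 0.963). The differences from the Myc effect were -0.45 ± 0.080 for Taf5l (adjusted p = 0.000435) and -0.48 ± 0.080 for Taf6l (adjusted p = 0.000227). Tdh lies on chromosome 14, where the median log2 fold change of all tested genes in Myc-KO was -0.32 and 49.1% of them were lower. Of 9 embryonic stem cell markers, 6 were lower and 1 higher in Taf5l-KO, 8 lower and none higher in Taf6l-KO, and 4 higher and none lower in Myc-KO. Of all tested genes, 15.9%, 18.2% and 19.5% were lower and 17.4%, 19.1% and 15.2% higher in those knockouts. The part of either shift in the Tdh values was not tested.

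The glycine cleavage system releases a one-carbon unit from glycine in mitochondria, and Gldc and Amt, which encode parts of it, were higher in both Taf knockouts. Gldc, its decarboxylase, had 186, 178 and 175 CPM in Taf5l-KO and 170.3, 177 and 175 CPM in Taf6l-KO, against 145, 150.3 and 152 CPM in WT-Taf. Its log2 fold change was 0.27 ± 0.034 in Taf5l-KO (adjusted p = 3.57e-05), 0.22 ± 0.034 in Taf6l-KO (adjusted p = 0.000143) and 0.12 ± 0.052 in Myc-KO (adjusted p = 0.124). Some alternatives called Gldc higher in Myc-KO too. These were leaving out Myc-KO replicate 3 (0.16, adjusted p = 0.0256), a single fit of all 15 libraries (0.15, 0.0154) and limma on log2(FPKM + 1) (0.23, 0.0308). For neither Taf knockout was the Gldc effect called different from that in Myc-KO. Amt, its aminomethyltransferase, was 0.19 ± 0.056 in Taf5l-KO (adjusted p = 0.0172), 0.16 ± 0.056 in Taf6l-KO (adjusted p = 0.0312) and -0.006 ± 0.061 in Myc-KO, with overlapping libraries in each. The Amt calls were lost without Taf5l-KO replicate 1 or WT-Taf replicate 1 or 2 (0.13 to 0.17, adjusted p = 0.0517 to 0.102) and without Taf6l-KO replicate 2 or 3 or WT-Taf replicate 1 or 2 (0.11 to 0.17, adjusted p = 0.0708 to 0.173). Of the remaining partners, Dld, the dehydrogenase subunit, was lower in both Taf knockouts, at -0.19 in Taf5l-KO (adjusted p = 0.0068) and -0.13 in Taf6l-KO (0.0374), and was 0.05 in Myc-KO (0.817). Gcsh was -0.01 in Taf5l-KO, 0.16 in Taf6l-KO (adjusted p = 0.00269) and 0.18 in Myc-KO (0.0156). Gcat, which acts after Tdh, was -0.07 in Taf5l-KO, -0.38 in Taf6l-KO (adjusted p = 0.000119) and -0.05 in Myc-KO.

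Several folate enzymes differed between the Taf knockouts. Serine hydroxymethyltransferase moves a one-carbon unit from serine to folate, in mitochondria (Shmt2) and in the cytosol (Shmt1). Shmt2 had 199, 201 and 199 CPM in Taf5l-KO and 167, 170.3 and 169 CPM in Taf6l-KO, against 208, 209 and 219 CPM in WT-Taf. It had 184, 189.5 and 173 CPM in Myc-KO, against 204, 216 and 219 CPM in WT-Myc. The knockout libraries were lower without overlap in each comparison. This gave a log2 fold change of -0.08 ± 0.030 in Taf5l-KO (adjusted p = 0.0488), -0.33 ± 0.030 in Taf6l-KO (adjusted p = 1.19e-06) and -0.23 ± 0.053 in Myc-KO (adjusted p = 0.0139). The call in Taf5l-KO was lost without any 1 of the 9 libraries of the Taf experiment (-0.10 to -0.06, adjusted p = 0.0531 to 0.205), and that in Myc-KO without WT-Myc replicate 2 or 3 (-0.21, adjusted p = 0.0538 to 0.0611). Mthfd2 and Mthfd1l, which carry the unit on to formate in mitochondria, were -0.23 (adjusted p = 0.000779) and -0.20 (adjusted p = 8.2e-05) in Taf6l-KO. Mthfd2 was -0.11 in Taf5l-KO (adjusted p = 0.0539) and 0.03 in Myc-KO, and Mthfd1l was 0.05 and -0.0015, none of them called. Mthfd2 was called lower in Taf5l-KO too under some alternatives. These were another scaling, RLE (-0.12, adjusted p = 0.0454), library totals (-0.14, 0.0438) and leaving out Taf5l-KO replicate 3 (-0.14, 0.0383).

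Set directly against Taf5l-KO, 3 of 31 members were higher in Taf6l-KO (9.68%, against 8.55% of all tested genes) and 4 lower (12.9%, against 10.1%). With library totals the counts were 8 higher and 3 lower, and over all genes the share of higher among the calls was 83.1%, against 45.8% with TMM scaling. Shmt2 was lower in Taf6l-KO, with a log2 fold change of -0.25 ± 0.030 (adjusted p = 0.000102), as was Mthfd1l at -0.26 ± 0.029 (adjusted p = 5.56e-05), and both calls held under every alternative tried. Mthfd2 was -0.11 ± 0.042 (adjusted p = 0.0828). The serine synthesis genes, which supply Shmt1 and Shmt2 with serine, were all lower in Taf6l-KO than in Taf5l-KO. Phgdh, the first of them, had 103, 111 and 111 CPM in Taf6l-KO and 136, 136 and 130.2 CPM in Taf5l-KO, a log2 fold change of -0.31 ± 0.035 (adjusted p = 6.64e-05). Psat1 was -0.13 (adjusted p = 0.0117) and Psph -0.18 (adjusted p = 0.0457). Against WT-Taf, Phgdh was -0.30 in Taf6l-KO and 0.0065 in Taf5l-KO, and in Myc-KO it was -0.54 against WT-Myc (adjusted p = 0.000739). ATF4, which drives the amino acid response, is a factor known to raise serine and mitochondrial folate genes. Of 15 genes of that response, 7 were lower in Taf6l-KO than in Taf5l-KO (46.7%, against 10.1% of all tested genes). None was higher (against 8.55%). Atf4 itself was -0.11 (adjusted p = 0.0453). Whether ATF4 has a part in the serine and folate gene values was not tested.

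Shmt1 was the one-carbon member with opposite calls in the Taf knockouts. It had 185, 192 and 192 CPM in Taf6l-KO and 162, 154 and 159 CPM in Taf5l-KO, against 173, 176 and 185 CPM in WT-Taf. It had 239.8, 228 and 218 CPM in Myc-KO, against 295, 300.4 and 302 CPM in WT-Myc. Taf5l-KO and Myc-KO libraries lay below their wild types, and Taf6l-KO libraries overlapped WT-Taf. In log2 terms the fold change was 0.09 ± 0.034 in Taf6l-KO (adjusted p = 0.0457), -0.17 ± 0.035 in Taf5l-KO (adjusted p = 0.00206) and -0.39 ± 0.049 in Myc-KO (adjusted p = 0.000763). Taf6l-KO was above Taf5l-KO by 0.26 ± 0.035 (adjusted p = 0.000166). The call in Taf6l-KO against WT-Taf was lost without Taf5l-KO replicate 3, Taf6l-KO replicate 2 or 3 or WT-Taf replicate 1 or 2 (0.07 to 0.09, adjusted p = 0.0511 to 0.184). Shmt1 lies on chromosome 11, where all tested genes had a median log2 fold change of 0.21 in Taf6l-KO against Taf5l-KO and 41.6% were called higher. Mat2b, a chromosome 11 gene for the regulatory subunit of methionine adenosyltransferase, was 0.40 in that comparison (adjusted p = 1.09e-05). The part of the chromosome-wide shift in the Shmt1 value was not tested. Mthfd1, the cytosolic trifunctional folate enzyme, was -0.09 in Taf6l-KO (adjusted p = 0.0219), -0.06 in Taf5l-KO and -0.04 in Myc-KO, and its call was lost without Taf6l-KO replicate 1 or 3 or WT-Taf replicate 2 or 3 (-0.09 to -0.08, adjusted p = 0.0633 to 0.0754).

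**Figure D3:**
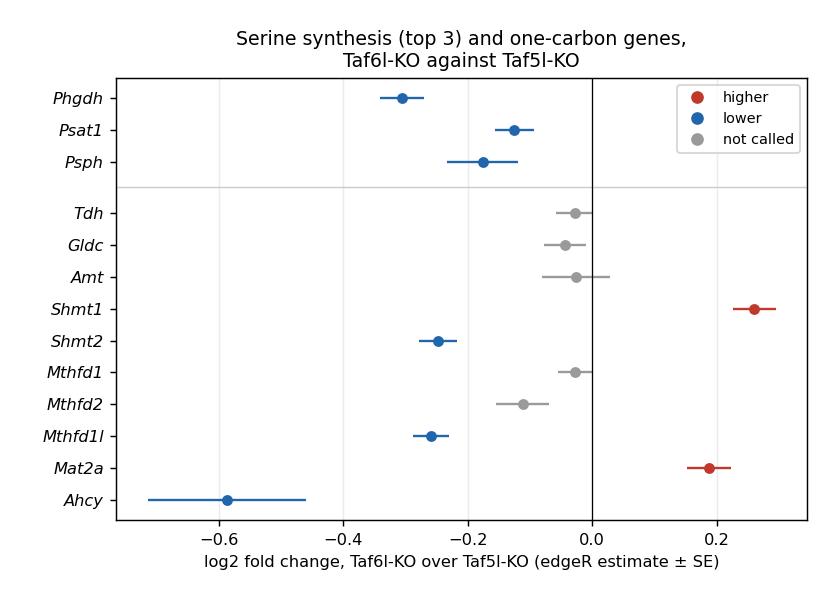
Log2 fold change of Taf6l-KO over Taf5l-KO (edgeR estimate with its standard error, x axis) for 3 serine synthesis genes and the 10 one-carbon members. Phgdh, Psat1, Psph, Shmt2, Mthfd1l and Ahcy are called lower in Taf6l-KO (blue), and Shmt1 and Mat2a higher (red). The Ahcy dot is that of its own row, and the call is lost when its near copies are added (0.0019, adjusted p = 0.974).

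The methionine cycle turns one-carbon units into methyl groups. Mat2a, the catalytic methionine adenosyltransferase, was -0.18 ± 0.035 in Taf5l-KO (adjusted p = 0.00122), 0.0072 ± 0.035 in Taf6l-KO and -0.05 ± 0.10 in Myc-KO. Ahcy, which hydrolyses S-adenosylhomocysteine, gave an uncertain value. Its row had 18.5, 26.2 and 23.1 CPM in Taf5l-KO and 17.7, 12.1 and 15.2 CPM in Taf6l-KO, against 13.5, 15.6 and 14.2 CPM in WT-Taf, and 19.8, 28.02 and 20.4 CPM in Myc-KO against 27.3, 21.6 and 29.2 CPM in WT-Myc. edgeR estimated the log2 fold change at 0.65 ± 0.13 in Taf5l-KO (adjusted p = 0.00156), 0.06 ± 0.14 in Taf6l-KO and -0.20 ± 0.16 in Myc-KO. Gm4737, an intronless copy that matches 99.7% of the Ahcy coding bases, held 20.03 times as many counts as the Ahcy row, and its log2 fold change was -0.15 in Taf5l-KO (adjusted p = 0.00134), -0.11 in Taf6l-KO (0.00852) and -0.29 in Myc-KO (0.00624). With both copies added to Ahcy, the sum had 322, 324 and 327 CPM in Taf5l-KO and 322, 323 and 329 CPM in Taf6l-KO, against 353, 344 and 347 CPM in WT-Taf. It had 522, 519.6 and 465 CPM in Myc-KO, against 594, 614 and 624 CPM in WT-Myc. The sum was lower in every knockout library than in every library of its wild type, and the log2 fold change was -0.10 in Taf5l-KO (adjusted p = 0.0107), -0.10 in Taf6l-KO (0.0104) and -0.28 in Myc-KO (0.00654). The direction called for Ahcy in Taf5l-KO thus turned when its copies were counted with it, and its difference between the Taf knockouts became 0.0019 (adjusted p = 0.974). The copies of Impdh2 and Tdh held 0.457% and 0.0512% as many counts as their members.

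**Figure D4:**
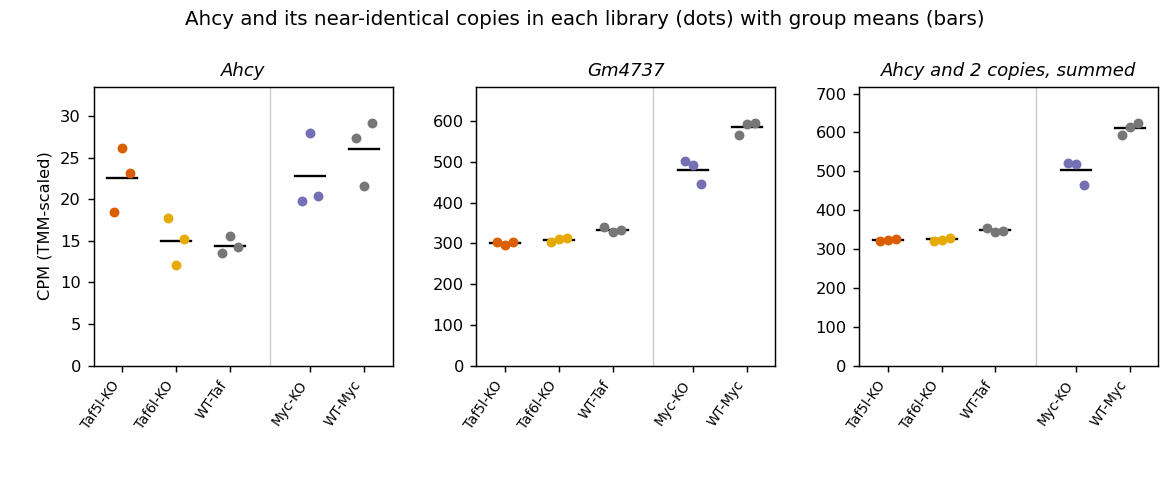
TMM-scaled CPM (y axis) of the Ahcy row, of its copy Gm4737 and of Ahcy with both copies summed, in each library (dots) with the group mean (bar), with knockouts left of their wild type. The Ahcy row is highest relative to WT-Taf in Taf5l-KO, at 18.5 to 26.2 CPM, while the sum lies below its wild type in every knockout library.

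Across the members, the knockout effect in the Taf experiment was also set against that in the Myc experiment. For Taf5l, 5 members had the higher effect (16.1%, against 15.7% of all tested genes) and 7 the lower (22.6%, against 16.4%). For Taf6l, 5 had the higher (16.1%, against 17.1%) and 8 the lower (25.8%, against 17.7%). Among them, Pfas, Impdh1, Cad and Shmt1 were relatively higher in both Taf knockouts, and Ppat, Paics, Umps, Dut, Tdh and Mthfd2 relatively lower. Several of these calls were lost when any 1 of several libraries was left out, with little change in the estimate. That of Mthfd2 for Taf5l (-0.19) was lost without replicate 1 or 2 of Taf5l-KO, WT-Taf or Myc-KO or any 1 WT-Myc library (-0.20 to -0.16, adjusted p = 0.0565 to 0.102), and its difference for Taf6l was -0.30 (adjusted p = 0.00223). That of Shmt1 for Taf5l (0.18) was lost without replicate 1 or 3 of Taf5l-KO, 2 or 3 of Taf6l-KO, 1 or 2 of WT-Taf, 2 or 3 of Myc-KO or 2 or 3 of WT-Myc (0.14 to 0.18, adjusted p = 0.0513 to 0.0963). That of Impdh1 for Taf5l (0.27) was lost without replicate 2 or 3 of Taf5l-KO, 1 or 2 of WT-Taf, 3 of Myc-KO or 2 or 3 of WT-Myc (0.22 to 0.28, adjusted p = 0.054 to 0.0984). That of Umps for Taf6l (-0.15) was lost without replicate 1 or 3 of Taf6l-KO, 1 or 3 of WT-Taf, 1 of Myc-KO or 2 of WT-Myc (-0.15 to -0.13, adjusted p = 0.0556 to 0.0782). The count for Taf6l was 9 higher and 4 lower with library totals.

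The counts were also taken without the chromosomes that shifted as a whole. Of the 25 members outside chromosomes 11, 14 and X, 13 were lower (52.0%, against 14.7% of all tested genes there) and 5 higher (20%, against 18.1%) in Taf5l-KO. In Taf6l-KO 16 were lower (64.0%, against 18.7%) and 4 higher (16.0%, against 17.4%). In Myc-KO 6 were lower (24%, against 17.8%) and 1 higher (4.0%, against 15.4%).

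Beyond the members, 67 of 71 other genes of these pathways were tested. In Taf5l-KO 20 were lower (29.9%, against 15.9% of all tested genes) and 7 higher (10.45%, against 17.4%). In Taf6l-KO 20 were lower (29.9%, against 18.2%) and 12 higher (17.9%, against 19.1%), and in Myc-KO 23 were lower (34.3%, against 19.5%) and 9 higher (13.4%, against 15.2%). Among 51 of them outside chromosomes 11, 14 and X, 13 were lower (25.5%, against 14.7% of all tested genes there) and 4 higher (7.84%, against 18.1%) in Taf5l-KO. In Taf6l-KO 18 were lower (35.3%, against 18.7%) and 7 higher (13.7%, against 17.4%). In Myc-KO 15 were lower (29.4%, against 17.8%) and 9 higher (17.6%, against 15.4%). Slc29a1, an equilibrative nucleoside transporter, had 133, 128 and 127 CPM in Taf5l-KO and 113, 118 and 118 CPM in Taf6l-KO, against 208, 206 and 205 CPM in WT-Taf, and 199.9, 199.9 and 178 CPM in Myc-KO against 215, 218 and 231 CPM in WT-Myc. Its log2 fold change was -0.67 ± 0.032 in Taf5l-KO (adjusted p = 2.45e-09), -0.83 ± 0.032 in Taf6l-KO (adjusted p = 3.57e-10) and -0.20 ± 0.060 in Myc-KO (adjusted p = 0.0346). Some amino acid carriers fell as well. Slc7a3, an arginine carrier on the X chromosome, was -0.46 in Taf5l-KO and -0.54 in Taf6l-KO, and Slc1a5, a glutamine carrier, was -0.54 in Taf6l-KO and -0.49 in Myc-KO. Slc1a4, a serine and alanine carrier on chromosome 11, had 2.95, 2.64 and 2.37 CPM in Myc-KO and 7.999, 8.32 and 7.07 CPM in WT-Myc (log2 fold change -1.55 ± 0.13, adjusted p = 0.000118).

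Salvage genes recover bases and nucleosides. Upp1, the uridine phosphorylase on chromosome 11, had 184, 174 and 165 CPM in Taf5l-KO and 180.1, 182 and 185 CPM in Taf6l-KO, against 159, 149.5 and 147 CPM in WT-Taf, and 184, 171 and 161 CPM in Myc-KO against 351, 351 and 365 CPM in WT-Myc. Its log2 fold change was 0.20 in Taf5l-KO (adjusted p = 0.00235), 0.26 in Taf6l-KO (0.000191) and -1.05 in Myc-KO (2.35e-05), and the effects differed by 1.20 (adjusted p = 2.22e-08) and 1.27 (8.94e-09). Pnp, the purine nucleoside phosphorylase, was -0.69 in Myc-KO (adjusted p = 0.000137) and lies on chromosome 14. Aprt, which recovers adenine, was -0.27 in Taf5l-KO, -0.37 in Taf6l-KO and -0.49 in Myc-KO, called lower in each. Ak4, a mitochondrial nucleotide kinase, had 137, 138 and 142 CPM in Taf6l-KO and 102, 97.7 and 97.8 CPM in Taf5l-KO, against 70.8, 68.5 and 69.7 CPM in WT-Taf, with log2 fold changes of 1.00 and 0.51, and was -0.23 in Myc-KO. Ampd3, an AMP deaminase, was -0.61 in Taf5l-KO and -0.52 in Taf6l-KO. Among folate genes, Mthfd2l, a minor mitochondrial paralog of Mthfd2, had 0.237, 0.612 and 0.261 CPM in Taf5l-KO and 0.3604, 0.441 and 0.367 CPM in Taf6l-KO, against 1.402, 1.59 and 1.49 CPM in WT-Taf, a low level with log2 fold changes of -1.97 ± 0.33 (adjusted p = 0.00036) and -1.93 ± 0.32 (0.000275).

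Several more of these genes had the largest changes of their lists. On the purine side, Adssl1, a second adenylosuccinate synthase, was -0.99 in Myc-KO (adjusted p = 0.025), and Gmpr2, which turns guanosine monophosphate back into IMP, was -0.67 in Myc-KO (0.000491) and lies on chromosome 14. Dguok, the mitochondrial deoxyguanosine kinase, was -0.57 in Taf5l-KO (adjusted p = 0.0127). In Taf6l-KO, Ada, the adenosine deaminase, was 0.64 (adjusted p = 0.00246), and Nt5e, a surface nucleotidase, was -0.61 (0.0248). Among pyrimidine kinases, Uckl1 was -0.67 in Taf6l-KO (adjusted p = 0.00344), Nme2 -0.22 in Taf5l-KO (0.000811) and Tk2, the mitochondrial thymidine kinase, 0.35 in Myc-KO (0.0468). Dctpp1 and Itpa, which clear unwanted nucleotides, were -0.24 in Taf5l-KO (adjusted p = 0.00582) and -0.14 in Taf6l-KO (0.0212). Fpgs, which retains folate in the cell, was -0.64 in Myc-KO (adjusted p = 0.000418), and Sfxn3, a mitochondrial serine carrier, was 0.83 in Myc-KO (0.000768).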

How the data were processed

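RNA was sequenced from rRNA-depleted, directional libraries of J1 cells, per the labels' protocols. The authors deposited estimated counts per gene, which were whole numbers, and FPKM, and Salmon 0.8.2 is named in the submitters' processing notes, which also name DESeq2 1.14.1 and mm9 without a role. The deposited normalized counts and TPM were not used here. The 31 members and all gene lists were chosen with earlier results of these data known. Estimated counts were tested with edgeR 4.0.16 (quasi-likelihood test, TMM scaling, filterByExpr, R 4.3.3) in 1 fit per experiment, and in 1 fit of all libraries for differences between the experiments. P-values were adjusted by Benjamini-Hochberg over all genes tested, with a threshold of 0.05. Alternatives used limma 3.58.1 on log2 FPKM, DESeq2 1.42.0, other scalings and filters, a replicate block, and each library left out. CPM is TMM-scaled. The deposited FPKM implied lengths of 3.14% to 85.5% of the longest annotated transcript, so levels were not compared between genes. Near copies were found with BLAST 2.17.0 (at least 95% identity over at least 50% of the reading frame). Library-by-library values were given for members called in all 3 knockouts, the called member with the largest change per branch and knockout, paralog pairs holding such a member or moving in opposite called directions, and the smallest adjusted p of each difference between experiments. Of each list of other pathway genes, up to 2 called genes with the largest change per knockout were named, and others were named after their values were seen. The fits were tested on simulated counts.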

Additional observations from a re-analysis of the deposited data

Results flagged for a closer look

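For 4 members the called effects of 2 knockouts had opposite directions, and the difference between the effects passed edgeR's quasi-likelihood test. Cad was higher in both Taf knockouts and lower in Myc-KO, a difference of 0.70 on the log2 scale for Taf5l (adjusted p = 5.86e-06) and 0.65 for Taf6l (adjusted p = 9.49e-06). Dut was lower in both Taf knockouts and higher in Myc-KO, a difference of -0.45 for Taf5l (adjusted p = 0.000184) and -0.57 for Taf6l (adjusted p = 1.57e-05). Prps1 was higher in Taf6l-KO and lower in Myc-KO, with a difference of 0.27 (adjusted p = 0.0044). Shmt1 was higher in Taf6l-KO and lower in Myc-KO, with a difference of 0.44 (adjusted p = 6.35e-05), on a chromosome whose tested genes had a median log2 fold change of 0.16 in Taf6l-KO and -0.06 in Myc-KO.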

How the results depend on the processing

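Among members called in a knockout, the direction turned for Ahcy alone, in Taf5l-KO, when its near copies were added, an alternative chosen after seeing the data. Ahcy was then -0.10 in Taf5l-KO and, newly called, -0.10 in Taf6l-KO, and 0.0019 in Taf6l-KO against Taf5l-KO. Across alternatives 1538 member fold changes against wild type kept direction and call, 156 lost the call, 16 gained one, 24 uncalled values moved beyond the spread and 2 turned. Counts of called members moved by over 1.5 times as follows. With limma on log2(FPKM + 1) or log2(FPKM + 0.1), 3 were higher in Taf5l-KO, 2 in Taf6l-KO and 1 in Taf6l-KO against Taf5l-KO, and 4 had a lower Taf5l than Myc effect. DESeq2 gave 3 higher in Taf6l-KO. A single fit of all 15 libraries gave 3 higher in Taf6l-KO, 3 in Myc-KO and 1 in Taf6l-KO against Taf5l-KO. Library totals gave 8 higher in Taf6l-KO against Taf5l-KO, 3 with a higher Taf5l than Myc effect, and 9 higher and 4 lower for Taf6l, and no filter gave 3 higher for Taf5l. Over all genes, the share of calls that were higher was 69.0% with library totals and 51.2% with TMM in Taf6l-KO. After removal of group means, same-numbered replicates correlated by -0.26 to 0.07 and differently numbered ones by -0.09 to 0.22. With 3 libraries a group, this cannot decide whether the numbers pair the libraries. The fit with a replicate block gave 0 higher and 6 lower in Myc-KO. Leaving out 1 library gave 3 to 6 higher and 14 to 16 lower in Taf5l-KO, 2 to 6 and 14 to 18 in Taf6l-KO, 0 to 2 and 7 to 11 in Myc-KO, and 3 to 3 and 4 to 5 in Taf6l-KO against Taf5l-KO. For the effect minus the Myc effect it gave 3 to 6 and 5 to 9 for Taf5l, and 5 to 6 and 7 to 11 for Taf6l. Where an alternative changed a count, the cause was not tested. With 3 libraries a group, changes near 0.1 on the log2 scale sat at the edge of what could be called in the Taf experiment. In Myc-KO that edge lay further out, with Prps1 called at -0.19 and Adsl (-0.17) and Impdh1 (-0.16) not called. A lack of a call in Myc-KO thus covers larger changes than in the Taf knockouts. The fitted biological coefficient of variation was 10.2% over the Myc-KO and WT-Myc libraries and 4.23% over those of the Taf experiment.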
